A study of Drosophila melanogaster with 8 samples.

Results

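Oxidative phosphorylation is carried out by 5 multi-subunit complexes of the inner mitochondrial membrane. Complexes I to IV pass electrons to oxygen, with the small carrier protein cytochrome c linking complexes III and IV, and complex V, the ATP synthase, uses the proton gradient that they build. Most subunits are encoded in the nucleus, and several of them in Drosophila have a second gene copy, many of which are known for expression in the testis. The nuclear genes were examined here for peaks of P-p38, that is p38 MAP kinase in its phosphorylated, active state, in chromatin of S2 cells.

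The genes were chosen by symbol alone: protein-coding genes of the 6 main chromosome arms named ND-, COX4 to COX8, ATPsyn, UQCR or Cyt-c, and SdhA to SdhD. The rule took 88 of 13922 protein-coding genes, of which 40 belonged to complex I, 4 to complex II, 11 to complex III, 16 to complex IV and 15 to complex V, and 2 encoded cytochrome c. By symbol, 23 of the 88 were duplicate copies (an L suffix, as in COX4L, or the testis cytochrome c gene Cyt-c-d) and 65 were canonical genes. The name rule misses some subunits that carry other symbols, among them blw, levy, cype, RFeSP and ox, and these are described separately. The members were short, with a median length of 1106 bp against 2163 bp for all protein-coding genes.

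S2 cells are an established haemocyte-like line, here wild type, kept at 25 ºC in Schneider's medium with serum. Treated cells were given 10 mM H2O2 for 30 min, and control cells an equal volume of medium. Nuclei were sonicated and P-p38 was precipitated with its antibody in 2 control and 2 H2O2 samples, and 1 peak list per library was analysed. The 4 input samples have no peak list here. The lists held 2988 to 6434 peaks on the arms, read depth is unknown, and replicates may be technical, so that p-values cover the spread between these samples. Of 10 haemocyte genes taken as markers of the line, 6 and 8 had a peak in control replicates 1 and 2. In H2O2 replicates 1 and 2 it was 4 and 6, where 10.0% to 13.0% of all protein-coding genes had a peak per library. The comparison was not matched for length: the 8 genes were 7671 to 64341 bp long, against a median of 2163 bp for all genes. In each H2O2 library 2 of 4 neuron genes had a peak as well.

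Peaks over the respiratory genes came mostly from control libraries, and most of these from control replicate 2 alone. A gene was counted when at least 1 bp of its body lay under a peak. In control replicate 1 this held for 8 of the 88 genes (9.09%, Wilson 95% interval 4.68 to 16.9), where 13.0% of all protein-coding genes had a peak. In control replicate 2 it held for 27 genes (30.7%, 22.0 to 41.0), against 12.2% of all genes. In H2O2 replicate 1 it held for 1 gene (1.14%, 0.201 to 6.16), against 10.0%, and in H2O2 replicate 2 for 6 genes (6.82%, 3.16 to 14.1), against 11.2%. The intervals cover counting error only and treat the genes as independent.

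Control replicate 2 thus stood above its genome-wide share by a wide margin, while control replicate 1 and both H2O2 libraries stood below theirs. The intervals of control replicate 1 and H2O2 replicate 2 included that share, and the comparison was not matched for length. The counts were 17.5 ± 13.4 genes in control (SD, n = 2) and 3.5 ± 3.54 genes in H2O2 (SD, n = 2), a difference of 14 genes. The groups did not overlap, and the exact two-sided permutation p was 0.333, the smallest that 2 against 2 libraries allow. The shares of all protein-coding genes did not overlap either, at 13.0% and 12.2% in control and 10.0% and 11.2% in H2O2. The order of the groups is thus not particular to the respiratory genes. Without control replicate 2 the difference was 4.5 genes. The cells were assayed in bulk, so fewer cells with P-p38 at a gene and less P-p38 per cell cannot be told apart.

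The extent of coverage gave the same order. At least 50% of the gene body lay under peaks for 2 members in control replicate 1 (2.16% of all genes), 13 in control replicate 2 (2.31% of all genes), 1 in H2O2 replicate 1 (0.704% of all genes) and 1 in H2O2 replicate 2 (0.668% of all genes). Mean coverage over the 88 members was 3.26% and 15.0% of the gene body in control replicates 1 and 2, close to and above the 3.10% and 3.21% over all genes. In H2O2 replicates 1 and 2 it was 0.814% and 1.58%, against 1.60% and 1.504% over all genes. Coverage over all genes was thus also higher in both control libraries than in both H2O2 libraries. For the members the difference between groups was 7.96 percentage points (exact permutation p = 0.333), and 2.07 points without control replicate 2.

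Short genes have fewer peaks, and among genes of at most 2000 bp the background was lower in every library. In that class peaks lay over 3 of 69 members in control replicate 1 (6.60% of such genes genome-wide), 18 in control replicate 2 (7.24%), 1 in H2O2 replicate 1 (4.33%) and 3 in H2O2 replicate 2 (4.43%). The share of short members was 26.1% in control replicate 2 and 4.35%, 1.45% and 4.35% in control replicate 1 and H2O2 replicates 1 and 2. In H2O2 replicate 2 it was thus near the 4.43% of short genes genome-wide.

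In total 31 of the 88 genes had a peak in at least 1 library and 57 had none. Of the 31, 20 had their peak in control replicate 2 alone and 0 had a peak in every library. The control libraries shared 7 genes, 87.5% of the list of replicate 1 and 25.9% of that of replicate 2. Of the 20 genes with a peak in control replicate 2 and none in control replicate 1, 2 had a peak of replicate 1 within 500 bp. The 7 shared genes were 7.95% of the members, near the 6.92% of all protein-coding genes with a peak in both control libraries, and 5 of them were left with lists of equal length. In both H2O2 libraries the count was 1 gene, against 5.82% of all genes.

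**Figure D1:**
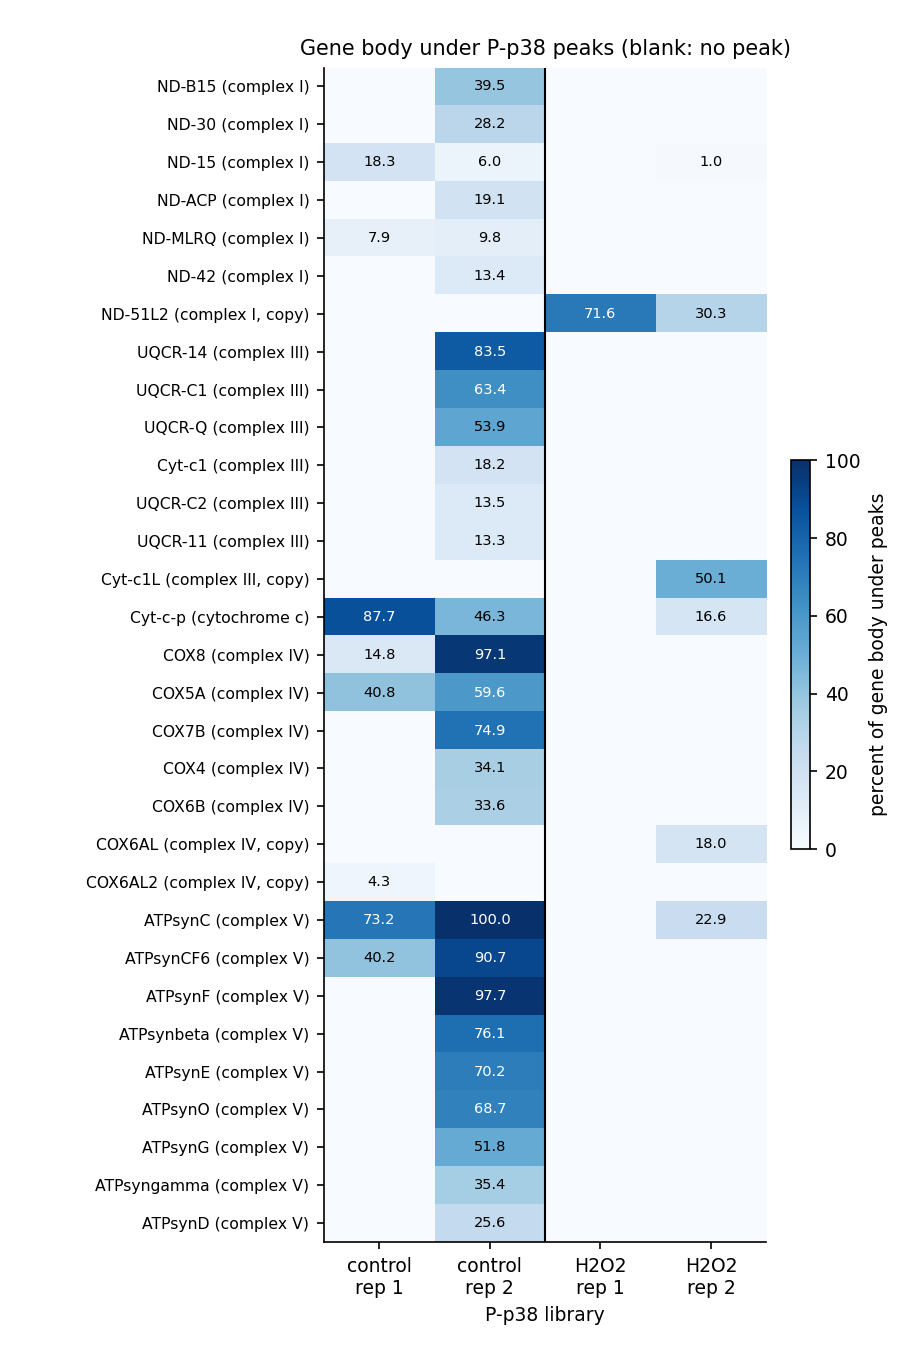
Percent of the gene body under P-p38 peaks for the 31 members with a peak in at least 1 library (rows, grouped by complex) in each of the 4 libraries (columns); blank cells had no peak. Control replicate 2 fills 27 rows, and ATPsynC, Cyt-c-p, COX5A and ATPsynCF6 are covered over at least 40.2% in both control libraries.

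The complexes differed in control replicate 2. Canonical genes of complex III had a peak in 6 of 7 cases, those of complex V in 9 of 11, those of complex IV in 5 of 8, those of complex I in 6 of 34 and those of complex II in 0 of 4. In that library 12.2% of all protein-coding genes had a peak. Mean coverage was 56.0% for complex V, 37.4% for complex IV, 35.1% for complex III and 3.41% for complex I. In control replicate 1 the counts were 0 of 7 for complex III, 2 of 11 for complex V, 2 of 8 for complex IV, 2 of 34 for complex I and 0 of 4 for complex II. The share of all protein-coding genes there was 13.0%. The high share of complex III thus rested on 1 library. Those of complexes IV and V did so for the most part, at 2 genes each in control replicate 1. No test of the difference between complexes was made, since genes are not replicates.

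**Figure D2:**
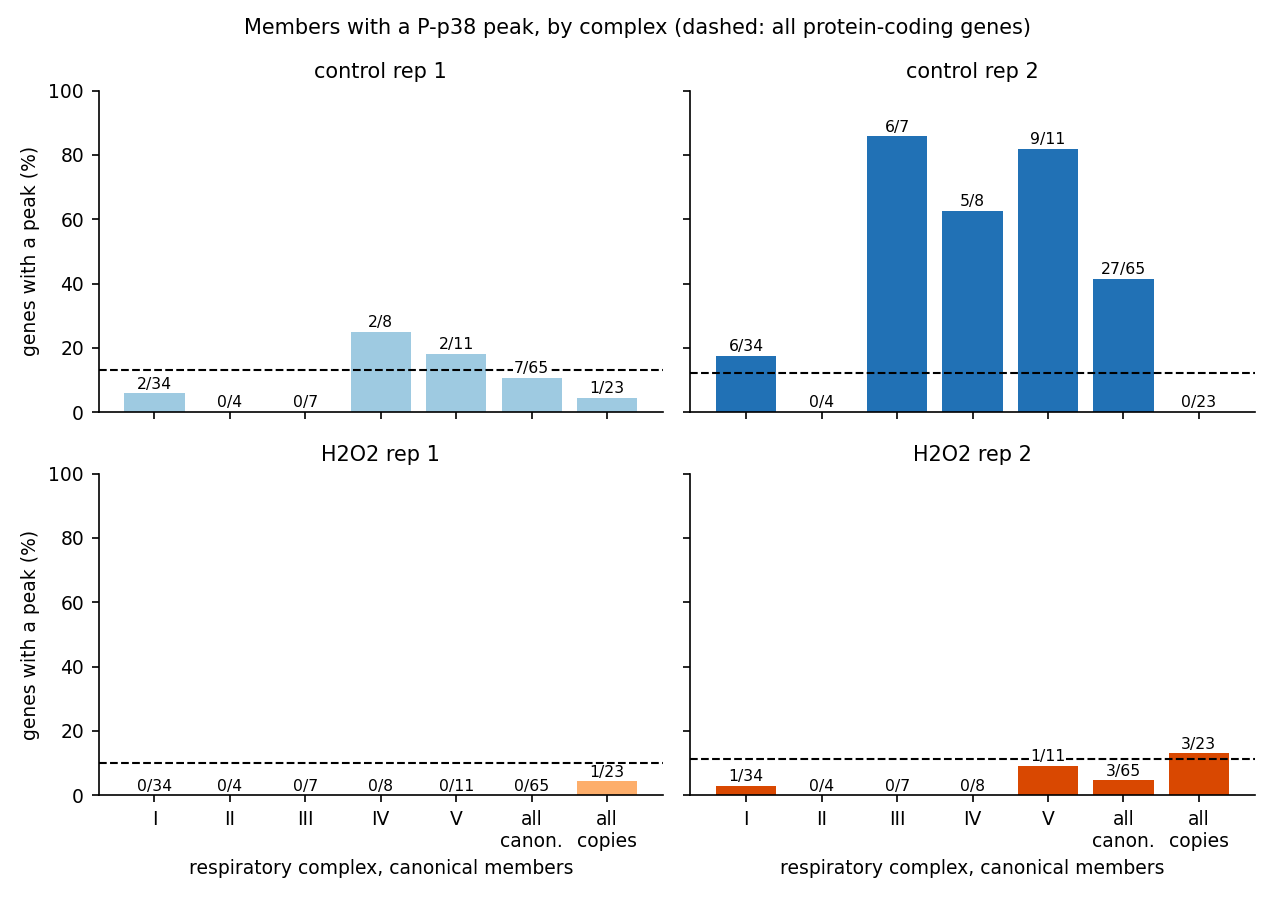
Percent of canonical members with a P-p38 peak by complex, and of all canonical members and all copies, in each library, with the number of genes above each bar; the dashed line is the share of all protein-coding genes. Complexes III, IV and V stand above the line in control replicate 2, at 6 of 7, 5 of 8 and 9 of 11 genes, complex I is nearer to it at 6 of 34, and complex II is at 0 in each library.

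Complex V, the ATP synthase, held ATPsynC, the member with the highest mean coverage over the 4 libraries. ATPsynC (3R 31216145 to 31219630), which encodes the c subunit of the proton-conducting membrane ring, was under peaks over 73.2% and 100% of its body in control replicates 1 and 2, over 0% in H2O2 replicate 1 and over 22.9% in H2O2 replicate 2. Both control values thus lay above both H2O2 values, an order favoured by naming genes for peaks in both control libraries. The peak of control replicate 2 was 3695 bp wide, ran past both gene ends, and stood at percentile 99.3 of the authors' fold enrichment within its list (fold 4.57). In control replicate 1 the gene carried 3 peaks at percentiles 83.3 to 87.8, and in H2O2 replicate 2 it carried 2 peaks at percentiles 16.8 and 27.6.

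ATPsynCF6, the gene of coupling factor 6 in the stalk of the enzyme (3R 23355220 to 23356064), was covered over 40.2% and 90.7% in control replicates 1 and 2 and had no peak in H2O2. Its summits lay 348 and 507 bp from the lower-coordinate end, and the peak of replicate 2 reached into the neighbouring gene PolE1. The peak of replicate 1 ranked at percentile 6.82 and was lost with lists of equal length and at q of 1e-05 or less, which left the gene covered in replicate 2 alone. The other 7 complex V genes with a peak had it in control replicate 2 alone, at coverages of 25.6% to 97.7%. They encode the catalytic beta subunit (ATPsynbeta, 76.1%), the rotor subunit gamma (ATPsyngamma, 35.4%), the oligomycin sensitivity protein of the stalk (ATPsynO, 68.7%), and subunits d, e, f and g (ATPsynD, ATPsynE, ATPsynF and ATPsynG). These genes, and the further ones covered in control replicate 2 alone, were picked after their values were seen. ATPsynB and ATPsyndelta were the canonical members of the complex with no peak in any library. The alpha subunit gene blw, outside the name rule, had peaks over 93.2% of its body in control replicate 2, 8.47% in H2O2 replicate 2 and none in the other two libraries.

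Cytochrome c is encoded by the somatic gene Cyt-c-p and the testis gene Cyt-c-d, neighbours on 2L. Cyt-c-p (16719932 to 16722644) was covered over 87.7% and 46.3% in control replicates 1 and 2, 0% in H2O2 replicate 1 and 16.6% in H2O2 replicate 2. The control values again lay above the H2O2 values, and here replicate 1 was the higher. The share of all protein-coding genes with this order is not given here for either gene. The summits near the lower-coordinate end fell at 175 and 169 bp in the control libraries, 6 bp apart, and at 352 bp in H2O2 replicate 2. The peak ranks were 89.0 and 91.1 in control and 15.9 in H2O2 replicate 2. A second peak of control replicate 1 had its summit in the adjoining proton pump gene VhaSFD. Cyt-c-d (16715891 to 16719635) had no bp under a peak in any library.

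Complex IV, cytochrome c oxidase, had COX8 and COX5A covered in both control libraries. COX5A (3R 11819359 to 11820299) was covered over 40.8% and 59.6% in control replicates 1 and 2 and had no peak in H2O2. Its summits lay 482 and 622 bp from the lower-coordinate end, and the peak ranked at percentile 4.27 in replicate 1 and 68.5 in replicate 2. With lists of equal length the peak of replicate 1 was lost, and at q of 1e-05 or less both were. COX8 (3L 21538859 to 21539447) was covered over 14.8% and 97.1%, and in replicate 1 the summit lay 107 bp outside the gene. COX7B, COX4 and COX6B had peaks in control replicate 2 alone, over 74.9%, 34.1% and 33.6%. The 6A and 6C subunit genes levy and cype, outside the name rule, were likewise covered in that library alone, over 90.2% and 33.4%.

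Complex III, the cytochrome bc1 complex, had peaks over its canonical genes in control replicate 2 and in no other library. UQCR-14 (X 16286288 to 16286988) was the most covered at 83.5%, but it lies inside CG32576, and its summit fell in both genes. The core protein gene UQCR-C1 carried 3 peaks over 63.4% of its body, 1 of them with its summit in the neighbour Dph2. UQCR-Q was covered over 53.9%, the cytochrome c1 gene Cyt-c1 (3L 5360211 to 5362798) over 18.2%, UQCR-C2 over 13.5% and UQCR-11 over 13.3%. The exception was UQCR-6.4, with no peak. The Rieske iron-sulfur protein gene RFeSP and the small subunit gene ox, both outside the name rule, were covered over 16.1% and 76.1% in the same library alone.

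Complex I, NADH dehydrogenase, had a peak over 17.6% of its 34 canonical genes in control replicate 2, where 12.2% of all genes had one, and over 5.88%, 0% and 2.94% in control replicate 1 and H2O2 replicates 1 and 2. Of the 7 genes for core subunits that carry the redox centres, ND-30 had a peak, over 28.2% of its body in control replicate 2, and ND-75, ND-51, ND-49, ND-24, ND-23 and ND-20 had none in any library. ND-B15, ND-ACP (the mitochondrial acyl carrier protein) and ND-42 were covered in control replicate 2 alone, over 39.5%, 19.1% and 13.4%. ND-MLRQ was covered over 7.88% and 9.77% in control replicates 1 and 2, by 2 peaks in each. The summits lay 4427 and 5433 bp from the lower-coordinate end in replicate 1 and 205 and 4355 bp in replicate 2. The stronger peak of replicate 2 was that at 205 bp (percentile 69.1), and the one at 4355 bp ranked at percentile 1.74. The gene is placed here by its symbol, although its human counterpart is now assigned to complex IV.

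ND-15 (2L 114726 to 156030) was the longest member at 41305 bp and overlaps 11 other protein-coding genes. It had 9 peaks in control replicate 1, 3 in control replicate 2 and 1 in H2O2 replicate 2, and each of the 13 also lay over another gene, such as CG4822 or CG3164. Coverage was 18.3%, 5.99%, 0% and 1.04% in control replicates 1 and 2 and H2O2 replicates 1 and 2. Which of these genes the peaks belong to cannot be told from the lists.

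Complex II, succinate dehydrogenase, which also acts in the tricarboxylic acid (TCA) cycle, had no peak. SdhA and SdhB on 2R and SdhC and SdhD on 3R had 0% of their bodies under peaks in each of the 4 libraries. With 10.0% to 13.0% of all protein-coding genes under a peak per library, 4 genes are too few to set apart from that share.

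**Figure D3:**
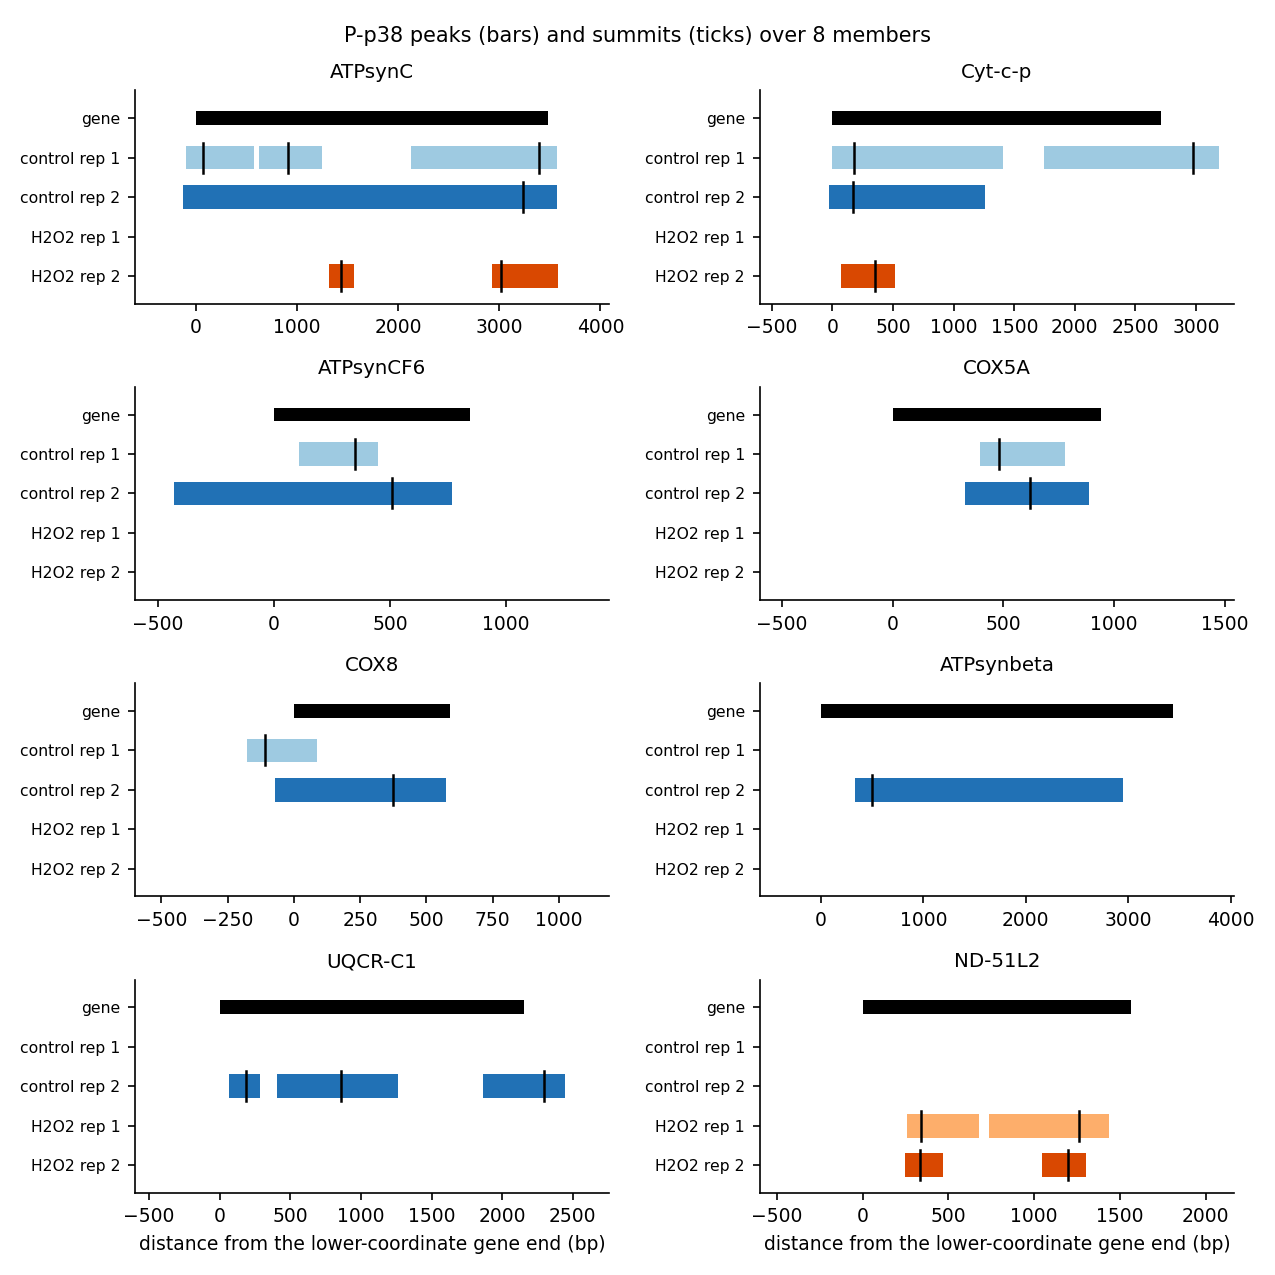
P-p38 peaks (coloured bars) and their summits (black ticks) over 8 members in each library, against distance in bp from the lower-coordinate end of the gene (black bar); strand is not shown. ATPsynC and Cyt-c-p carry control peaks near the same ends in both libraries, ATPsynbeta and UQCR-C1 in control replicate 2 alone, and ND-51L2 has paired peaks in both H2O2 libraries.

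Most peaks over the members had their summit inside the member. This held for 18 of 20 peaks in control replicate 1, 34 of 35 in control replicate 2, 2 of 2 in H2O2 replicate 1 and 8 of 9 in H2O2 replicate 2. The 18 in control replicate 1 include 9 over the long gene ND-15. Counted as genes, 7 and 27 members had a summit inside in control replicates 1 and 2, where 12.1% and 11.5% of all genes did. In H2O2 replicates 1 and 2 it was 1 and 5 members, against 9.81% and 11.0% of all genes (exact permutation p = 0.333 between groups). In control replicate 2 the summits lay a median of 332.5 bp from the nearest gene end, ranging from 90 to 3721 bp. Because the genes are short, 27 of these 34 summits were within 500 bp of an end, and start and stop sides cannot be separated without strand.

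Peaks over the members were wider than the typical peak of the control lists, and their ranks spread widely. Median widths were 561 and 471 bp in control replicates 1 and 2, against 324 and 354.5 bp for all peaks of those lists. Of the 20 peaks in control replicate 1, 9 lay over ND-15 and also over other genes. The values of that library thus lean on 1 gene, and medians without it are not given here. Median fold percentiles were 69.9 and 66.9 in control and 34.4 and 35.5 in H2O2 replicates 1 and 2, with 2 and 9 peaks behind the latter. In control replicate 2 the ranks ran from 1.74 for a peak over ND-MLRQ to 99.3 for ATPsynC. A q of 1e-05 or less was reached by 8 of 20 and 12 of 35 peaks over members in control replicates 1 and 2, against 21.6% and 25.7% of all peaks in those lists. In H2O2 replicates 1 and 2 it was reached by 0 of 2 and 0 of 9, against 9.70% and 7.61% of all peaks, numbers too small to set apart from the lists.

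**Figure D4:**
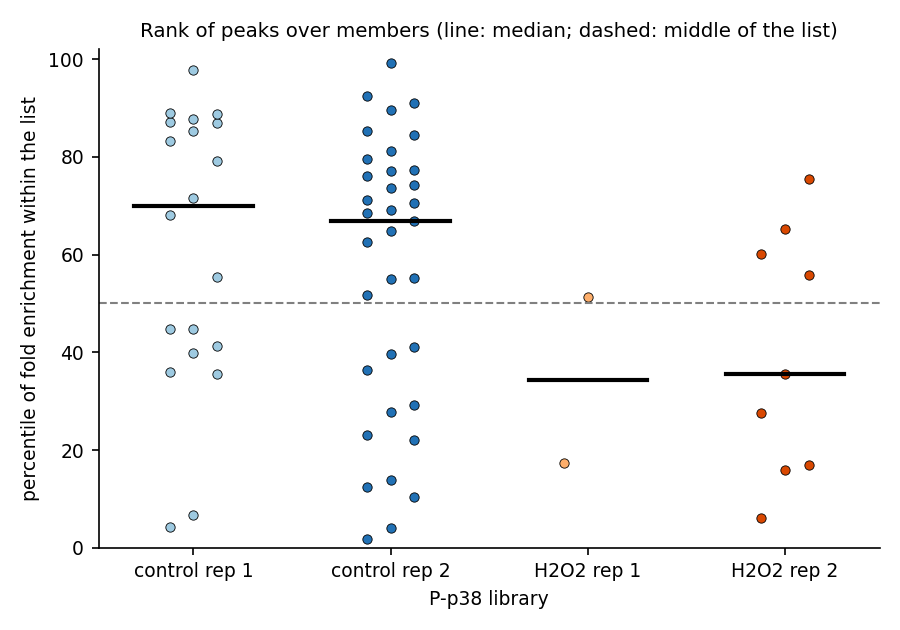
Percentile of the authors' fold enrichment within its own list for each peak over a member, by library, with the median as a line; the dashed line marks the middle of each list. Control medians are 69.9 and 66.9 and H2O2 medians 34.4 and 35.5, from 20, 35, 2 and 9 peaks. Of the 20 peaks in control replicate 1, 9 lay over ND-15.

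The duplicate copies were compared with the canonical genes within each library. In control replicates 1 and 2 peaks lay over 7 and 27 of 65 canonical genes (10.8% and 41.5%) and over 1 and 0 of 23 copies (4.35% and 0%), against 13.0% and 12.2% of all genes. In H2O2 replicates 1 and 2 they lay over 0 and 3 canonical genes (0% and 4.62%) and over 1 and 3 copies (4.35% and 13.0%), against 10.0% and 11.2% of all genes. Canonical genes in control replicate 1 and copies in H2O2 replicate 2 were thus near the share of all genes. These shares are not matched for length, and the copies were shorter, with a median of 730 bp against 1194 bp for canonical genes. Among all genes of at most 2000 bp the share was 6.60% and 7.24% in control and 4.33% and 4.43% in H2O2 replicates 1 and 2. The canonical share minus the copy share was 6.42 and 41.5 percentage points in control and -4.35 and -8.43 points in H2O2. The sign was positive in both control libraries and negative in both H2O2 libraries, where it rests on 1 and 3 copies. In H2O2 replicate 1 the value was 0 with lists of equal length, at q of 1e-05 or less and by summits in no other gene. The difference between groups was 30.4 points (exact two-sided permutation p = 0.333, the smallest possible), and 12.8 points without control replicate 2. Over the 4 libraries the share difference averaged 8.80 points (exact sign-flip p = 0.75), and without control replicate 2 it turned to -2.12 points.

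The copies with peaks were ND-51L2, Cyt-c1L, COX6AL and COX6AL2. ND-51L2 (2R 15296764 to 15298329), a copy of the gene for the flavoprotein subunit of complex I, was covered over 71.6% and 30.3% in H2O2 replicates 1 and 2 and had no peak in control. The 2 H2O2 libraries placed 2 peaks each, with summits at 339 and 337 bp and at 1261 and 1195 bp from the lower-coordinate end. The gene lies inside the ion channel gene Trpm, and each of the 4 summits was in both genes. The peaks ranked at percentiles 17.4 to 75.5, and with lists of equal length none of those of H2O2 replicate 1 was left. Cyt-c1L (3R 29202660 to 29204133), the copy of Cyt-c1, was covered over 50.1% in H2O2 replicate 2 alone, with its higher peak at percentile 55.8.

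COX6AL was covered over 18.0% in H2O2 replicate 2 by a peak whose summit lay 74 bp outside it, in the surrounding gene Cyp4aa1. COX6AL2 was covered over 4.33% in control replicate 1. Nesting itself differed, with 9 of 23 copies (39.1%) and 2 of 65 canonical genes (3.08%) lying wholly inside another protein-coding gene. Its part in the copies' peaks was not tested beyond the count of summits in no other gene, by which canonical genes led copies by 4.88 and 40.0 points in control and by 0 and -1.27 points in H2O2 replicates 1 and 2.

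Other mitochondrial gene lists leaned on control replicate 2 in part. The subunit genes examined outside the name rule were a chosen list of 7, which need not be complete. The 5 canonical genes in it each had a peak in control replicate 2, and the copies SdhAL and SdhBL had none. The counts were 0, 5, 0 and 1 of 7 in control replicates 1 and 2 and H2O2 replicates 1 and 2. The share of all protein-coding genes in these libraries was 13.0%, 12.2%, 10.0% and 11.2%. For the TCA cycle the counts were 2, 6, 0 and 1 of 14 (14.3%, 42.9%, 0% and 7.14%), so that control replicate 2 alone stood well above the share of all genes, with Pdhb of the pyruvate dehydrogenase complex (29.4% and 13.1%) and Ogdh (7.47% and 9.54%) covered in both control libraries. For carriers of the mitochondrial membranes they were 1, 4, 0 and 0 of 7 (14.3%, 57.1%, 0% and 0%). The ADP/ATP translocase gene Ant2 was covered over 4.39% and 18.2% in control replicates 1 and 2, and the phosphate carrier gene Mpcp2 over 60.4% in replicate 2. Neither list was matched for gene length. The TCA cycle genes with a peak were 3127 to 13903 bp long and the carriers with a peak 2791 to 7954 bp, against a median of 2163 bp for all genes.

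Mitochondrial ribosomal protein genes had 4, 4, 0 and 1 of 73, and mRpL16 was the gene with a peak in both control libraries, over 46.8% and 23.2%. The share of this list, 5.48% in each control library, lay below the 13.0% and 12.2% of all genes. It was nearer to the 6.60% and 7.24% of genes of at most 2000 bp, and the list was not matched for gene length. Assembly factors had 1, 1, 0 and 0 of 5, or 20% in each control library. Genes for upkeep of the mitochondrial genome and its regulators had 1, 2, 0 and 1 of 12, or 8.33% and 16.7% in control replicates 1 and 2. The upkeep share was below that of all genes in control replicate 1. The other control shares were above it, on few genes. None of these lists had a gene with a peak in both H2O2 libraries.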

How the data were processed

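The deposited data are 4 narrowPeak lists, 1 per P-p38 immunoprecipitation. The tools were Picard and MACS2 and the build dm6, per the submitters' processing notes; versions, options and the library used as background are not stated there. Each deposited peak has a score, a fold enrichment (a linear ratio over the caller's background), and a p-value and a q-value, both as -log10. The authors' fold was used as a percentile within each list and not compared as a level, since depth is unknown. No peak was narrower than 200 bp.

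Gene positions came from the RefSeq table of Release 6, the assembly of dm6. It gives no strand and no sequence, so summits were measured from gene ends without orientation and no sequence is shown. With Python 3.11.15, pandas 2.3.3, numpy 2.4.6 and scipy 1.17.1, each library's peaks were intersected with gene bodies (minimum overlap 1 bp) and coverage, summits and other genes under each peak were recorded. The overlap step was tested on simulated data. Values per library were compared by exact two-sided permutation of group labels (6 arrangements, smallest p 0.333) or exact sign-flip over libraries (smallest p 0.125). Background is the same count over all 13922 protein-coding genes.

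Named genes were members with a peak in both libraries of a group, copies with a peak, Cyt-c-p, Cyt-c-d, Cyt-c1 and SdhA to SdhD, the most covered member of each complex, and list genes called in both libraries of a group; others were picked after their values were seen. The members, lists and alternatives were chosen with earlier results of these data known. Of the marker lists besides haemocyte genes, neuron genes had 0 of 4 with a peak in both control and 2 in both H2O2 libraries, muscle genes 0 and 1 of 4, and testis genes 0 and 0 of 6. In the lists of assembly factors 5 of 9 symbols were matched.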

Additional observations from a re-analysis of the deposited data

Results flagged for a closer look

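The share of canonical genes with a peak exceeded that of copies in both control libraries and was below it in both H2O2 libraries. The canonical minus the copy share was 6.42 and 41.5 points in control and -4.35 and -8.43 points in H2O2, a difference of 30.4 points. The exact permutation p was 0.333, the smallest the design allows. The H2O2 values rest on 1 and 3 copies, of which ND-51L2 and COX6AL lie inside other genes, and no test was made within H2O2. The negative sign was lost in H2O2 replicate 1, at 0 points, with lists of equal length, at q of 1e-05 or less and by summits in no other gene. In H2O2 replicate 2 the value was 0 points at q of 1e-05 or less, -1.27 by summits in no other gene and -9.97 with lists of equal length.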

How the results depend on the processing

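The difference between groups in members with a peak, members covered over at least 50%, mean coverage, members with a summit inside and the canonical minus copy share kept its direction under lists of equal length, a q of 1e-05 or less, genes widened by 500 bp and, where run, a minimum coverage of 25%. For members with a peak and the canonical minus copy share it was also kept under 2 settings added after the data were seen, genes of at most 2000 bp and summits in no other gene, under which the other 3 measures were not run. No exact p can pass 0.05 in this design. Leaving out 1 library in turn gave differences of 4.5 to 23.5 genes with a peak and 2.07 to 13.8 points of mean coverage, the lowest without control replicate 2 in each case. Members covered over at least 50% then differed by 1 to 12 genes, members with a summit inside by 4 to 24, and the canonical minus copy share by 12.8 to 47.9 points. The mean canonical minus copy share over libraries ran from -2.12 points without control replicate 2 to 14.5.

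Genes with a peak in both control libraries, 7 as reported, numbered 3 at q of 1e-05 or less, 4 at 25% coverage, 11 with genes widened by 500 bp and 3 among genes of at most 2000 bp, and 8 to 27 with a single control library. Genes with a peak in both H2O2 libraries, 1 as reported, numbered 0 at q of 1e-05 or less, 0 with lists of equal length, 2 with widened genes, 0 by summits in no other gene and 1 to 6 with a single library. The causes were not tested. Both groups number their replicates 1 and 2, but the coverage of libraries with the same number deviated from the group means with r = 0.0602 across all genes, so the numbers were not taken as pairs. With the replicate block the differences are 14 genes with a peak, 6.5 covered over at least 50%, 7.96 points of coverage, 14 with a summit inside and 30.4 points of share, with an exact sign-flip p of 0.5, the smallest possible.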

Other observations

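The mitochondrial genome, which encodes the remaining subunits of complexes I, III, IV and V, has 0 peaks in each of the 4 lists; whether its reads were kept before peak calling is unknown. Over the whole genome the control libraries covered similar numbers of genes: 1804 and 1700 protein-coding genes had a peak in control replicates 1 and 2, against 8 and 27 of the respiratory genes. The members with a peak in control replicate 2 lay unevenly over the arms, with 9 of 20 on 3L and 9 of 19 on 3R, where 12.2% and 13.0% of all protein-coding genes had a peak in that library. There were 4 of 18 on 2L (10.8% of all genes), 2 of 17 on 2R (14.2%), 1 of 2 on 4 (10.0%) and 2 of 12 on X (10.1%). Complexes and copies were not spread evenly over the arms either, with complex I genes making up most members on X. The arms were not compared within a complex.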
